A study of Saccharomyces cerevisiae W303 with 9 samples.

Results

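The cell wall integrity pathway protects budding yeast against weakening of its wall. Sensors of the Wsc and Mid2 families in the plasma membrane activate the GTPase Rho1 and the protein kinase Pkc1, which starts a kinase cascade that ends in the MAP kinase Slt2. Slt2 acts through the transcription factors Rlm1 and Swi4-Swi6, and many Rlm1 targets encode wall proteins and wall-building enzymes.

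Described here are 10 genes of this pathway, chosen by name from the 7127 features of a deposited count table. All 10 had enough reads to be tested, as had 5970 features in all. SLT2 (YHR030C) and RLM1 (YPL089C) encode the kinase and its transcription factor, and CRH1 (YGR189C) and YPS1 (YLR120C) encode a transglycosylase and a protease of the cell surface. CWP1 (YKL096W) and SED1 (YDR077W) encode mannoproteins that are anchored through glycosylphosphatidylinositol (GPI), and PIR1 (YKL164C), HSP150 (YJL159W), PIR3 (YKL163W) and CIS3 (YJL158C) make up a family of wall proteins with internal repeats.

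Poly(A) RNA was sequenced from yeast of the W303 laboratory background in 9 libraries, 3 per group. In the construct strain AIM29 was deleted and the construct pmTDH3-ZPR1 was present, the deletion mutant lacked AIM29 and carried no such construct per its label, and the wild type had neither change. TDH3 is a highly transcribed glycolytic gene, but the labels do not say what pm stands for or where the construct sits. Libraries of a group came from 3 isolates of a strain, all grown in the rich medium YPD and collected in mid-log phase at an OD600 (optical density) between 0.4 and 0.6. Whether the isolates were independently made is not given in the sources used here, so p-values measure the spread between isolates and no more.

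AIM29 stood at 7.46, 7.05 and 5.17 CPM in construct replicates 1, 2 and 3, at 0.782, 3.87 and 3.63 CPM in the deletion-mutant libraries and at 76.0, 82.2 and 76.9 CPM in the wild type. CPM are read counts scaled to library size and composition. ZPR1 reached 5645, 4856 and 5640 CPM in the construct libraries, against 445, 400 and 421 CPM in the deletion-mutant libraries and 329, 322 and 337 CPM in the wild type. Both genes thus separated the strains as labelled, in every library. Totals ran from 14380639 to 20140071 counts. The biological coefficient of variation among libraries was 14.8% in the construct strain, 3.76% in the deletion mutant and 5.22% in the wild type. Construct replicate 3 stood apart from its group, as described below for the wall genes, and results that rest on it are given with and without it. CPM are shares of a library's RNA, so a change in total RNA per cell cannot be seen in them.

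Each of the 10 genes is annotated as a single coding exon in the reference annotation of build R64. CWP1 lies on chromosome XI at 261132 to 261851 on the plus strand. PIR1 (141794 to 142819, minus strand) and PIR3 (144401 to 145378, plus strand) lie on the same chromosome and are transcribed away from each other, with 1581 bases between their coding regions. HSP150 (120449 to 121690, plus strand) and CIS3 (122265 to 122948, minus strand) converge on chromosome X with 574 bases between them. SED1 is on chromosome IV (600793 to 601809, plus strand) and SLT2 on chromosome VIII (168890 to 170344, minus strand). RLM1 is on chromosome XVI (379120 to 381150, minus strand), CRH1 on chromosome VII (876669 to 878192, minus strand) and YPS1 on chromosome XII (386511 to 388220, minus strand). Of the 50-base windows in each gene, 89.2% occur once in the genome for PIR3, 92.6% for HSP150, 92.8% for PIR1, 95.2% for SED1, 97.5% for CIS3 and all for the other 5 genes. The sources used here do not say how the authors counted reads of repeated sequence, so counts of the genes with fewer unique windows are less certain.

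Rlm1 is known to bind the letters CTA and TAG around 4 A or T bases. The 500 bases before each start codon were searched on both strands for CTANNNNTAG, a pattern that reads the same on either strand. It was found upstream of 5 of the 10 genes and in 9.24% of the 6019 upstream regions searched. A match is a description of letters and does not show binding. One match per gene is printed for these 5 genes, since they include PIR3, CWP1 and SED1, whose transcripts differed most between construct libraries. The sequence is that of the RefSeq reference, build R64, read 5′ to 3′ on the gene's strand, and the W303 sequence was not examined. Capitals mark the matched letters.
PIR3 (chrXI:144096-144155, plus strand): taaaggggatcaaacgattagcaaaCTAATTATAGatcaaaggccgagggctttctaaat
CWP1 (chrXI:260721-260780, plus strand): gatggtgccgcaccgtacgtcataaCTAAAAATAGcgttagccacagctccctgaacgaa
SED1 (chrIV:600293-600347, plus strand): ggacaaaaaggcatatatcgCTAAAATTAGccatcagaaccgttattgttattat
HSP150 (chrX:120201-120260, plus strand): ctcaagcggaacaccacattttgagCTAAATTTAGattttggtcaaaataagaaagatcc
RLM1 (chrXVI:381424-381483, minus strand): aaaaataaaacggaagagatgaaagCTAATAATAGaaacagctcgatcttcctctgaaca

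In these 5 matches all the bases between CTA and TAG were A or T. The matches began 280 bases before the start codon in PIR3, 386 in CWP1, 480 in SED1, 223 in HSP150 and 308 in RLM1. HSP150 had a second match nearer its start codon, not printed here, whose middle bases included C. No match was found in the windows of SLT2, CRH1, YPS1, PIR1 and CIS3. The letters CNCGAAA, known as the Swi4 pattern, were found upstream of SLT2, CRH1 and CWP1 and in 22.0% of all regions. In CWP1, which held both patterns, the matches did not overlap.

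Levels per length were compared first in the wild type, as CPM per kilobase of coding sequence. SED1 had the highest level, 1765 ± 129 (SD, n = 3 for all values of this paragraph), followed by HSP150 with 1511 ± 78.1 and CIS3 with 1195 ± 41.6. PIR1 had 747 ± 28.1, CRH1 330 ± 2.68, CWP1 262 ± 16.9 and SLT2 120 ± 5.80. The lowest were PIR3 with 67.0 ± 3.72, RLM1 with 43.7 ± 0.290 and YPS1 with 40.3 ± 2.15. The wild-type ranges of neighbours in this order did not overlap, down to the pair of RLM1 (43.4 to 43.9) and YPS1 (39.0 to 42.8). Genes of structural wall proteins thus lay above those of the kinase and its transcription factor, except PIR3, which lay below SLT2 but above RLM1. In construct replicate 3 PIR3 reached 261 CPM per kilobase and so stood above SLT2, which had 203 there.

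The kinase gene and the transcription factor gene differed little between the deletion mutant and the wild type and were highest in construct replicate 3. SLT2 was measured at 163, 187 and 295 CPM in construct replicates 1, 2 and 3, at 188, 199 and 205 CPM in the deletion-mutant libraries and at 164, 178 and 180 CPM in the wild type. Every deletion library lay above every wild-type library, and construct replicates 1 and 2 lay below every deletion library. RLM1 had 98.3, 89.3 and 145 CPM in the construct libraries. Its values were 87.6, 82.8 and 91.5 CPM in the deletion-mutant libraries and 89.1, 88.2 and 89.2 CPM in the wild type. The deletion and wild-type libraries overlapped, and all construct libraries lay above the wild type, replicate 2 only just.

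CRH1 encodes an enzyme that links chitin to glucan in the wall. It had 546, 541 and 907 CPM in the construct libraries, 494, 473 and 497 CPM in the deletion-mutant libraries and 500, 507 and 500 CPM in the wild type. All construct libraries were above all others, and the deletion-mutant libraries lay below the wild type. YPS1 encodes a GPI-anchored aspartyl protease of the cell surface, a yapsin. Its levels were 69.2, 72.7 and 106 CPM in the construct libraries, 64.7, 65.3 and 65.6 CPM in the deletion-mutant libraries and 66.7, 67.0 and 73.2 CPM in the wild type. The deletion-mutant libraries were the lowest, and construct replicates 1 and 2 overlapped the wild type.

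CWP1, a mannoprotein linked to wall glucan, gave 139, 201 and 698 CPM in construct replicates 1, 2 and 3. Against these stood 161, 190 and 174 CPM in the deletion-mutant libraries and 187, 202 and 178 CPM in the wild type. Construct replicate 3 was 3.46-fold above the next highest library, and the other 8 libraries overlapped between groups. SED1 is known as an abundant mannoprotein that is induced by stress. It reached 1551, 1771 and 5347 CPM in the construct libraries, 1953, 1952 and 1923 CPM in the deletion-mutant libraries and 1738, 1944 and 1702 CPM in the wild type. Here too construct replicate 3 was alone, 2.74-fold above the next library, while the other construct libraries lay below the deletion-mutant libraries.

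The 4 genes of the repeat family parted from one another. PIR3 had 35.2, 39.0 and 255 CPM in construct replicates 1, 2 and 3, 40.0, 37.9 and 35.8 CPM in the deletion-mutant libraries and 63.4, 69.7 and 63.4 CPM in the wild type. All libraries of the deletion mutant were below the wild type, the first 2 construct libraries were there as well, and the third was 3.66-fold above the highest other library. PIR1, its divergent neighbour, had 823, 941 and 846 CPM in the construct libraries, 906, 808 and 809 CPM in the deletion-mutant libraries and 734, 786 and 781 CPM in the wild type. Construct replicate 3 was the middle one of its group for PIR1, and both AIM29-deleted strains lay above the wild type.

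HSP150, a secreted family member first known as a heat shock protein, stood at 1860, 1785 and 2821 CPM in the construct libraries. In the deletion-mutant libraries it had 2063, 1893 and 1954 CPM, and in the wild type 1769, 1958 and 1902 CPM. The deletion mutant and the wild type overlapped, and construct replicates 1 and 2 lay within the wild-type range and below every deletion library. CIS3 had 861, 805 and 1174 CPM in the construct libraries, 729, 722 and 738 CPM in the deletion-mutant libraries and 789, 846 and 816 CPM in the wild type. The deletion-mutant libraries were the lowest and varied least, and the first 2 construct libraries lay within or just above the wild-type values.

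**Figure D1:**
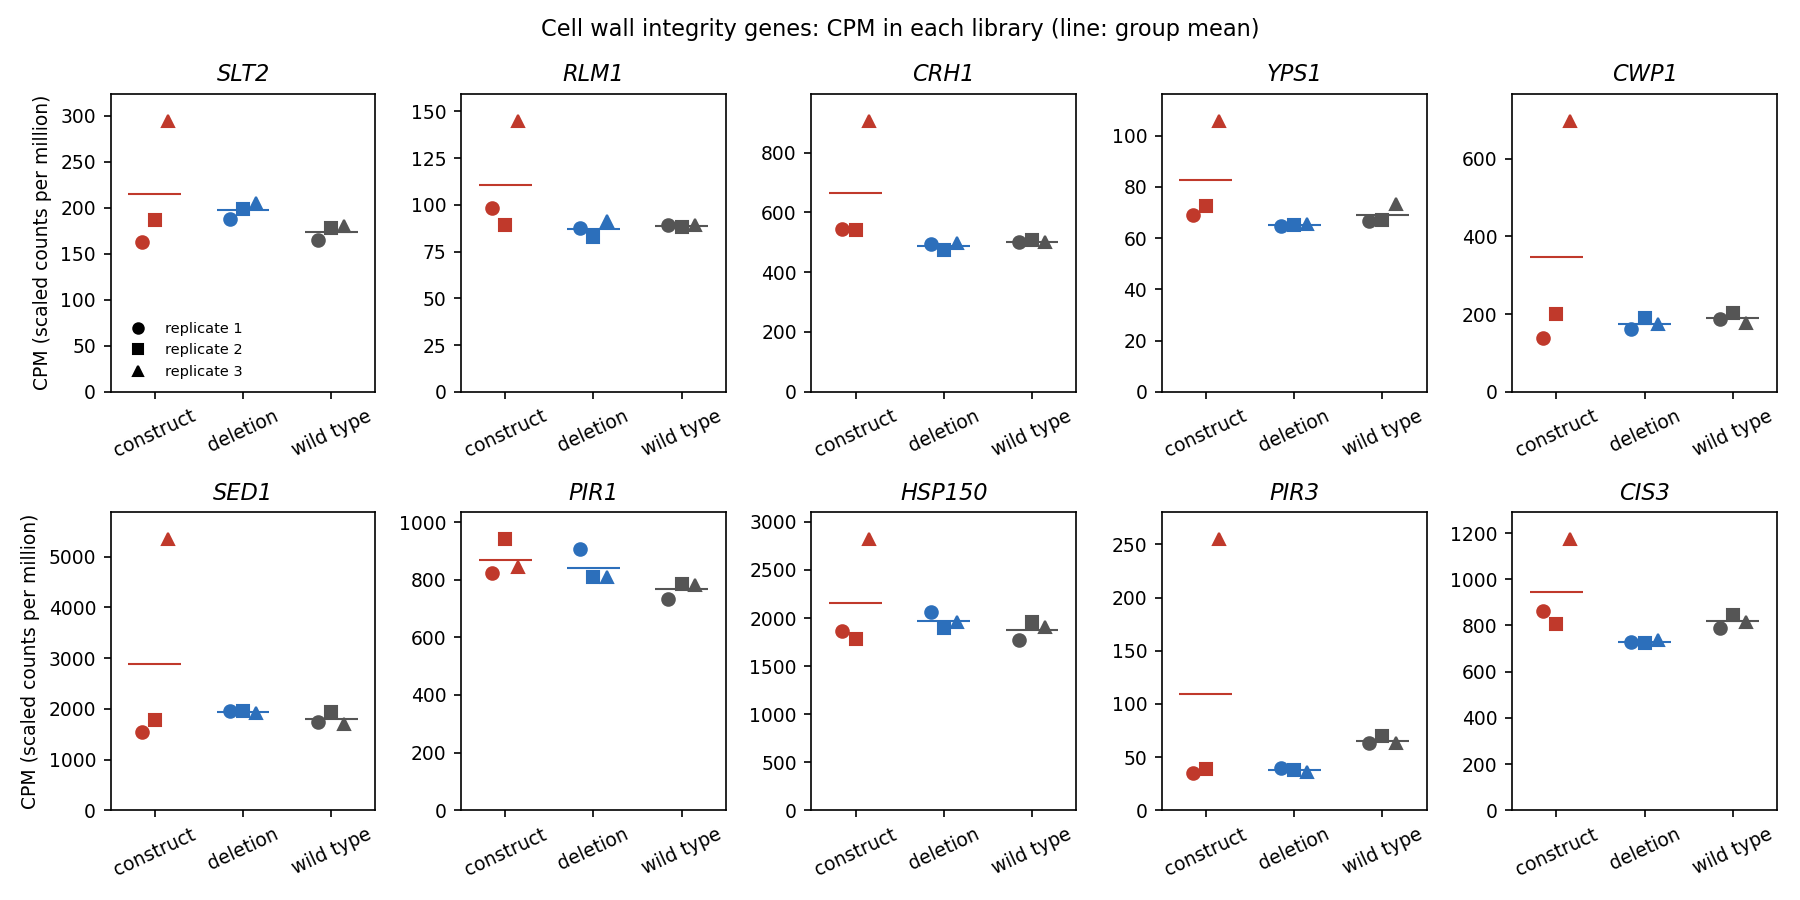
Level of each of the 10 wall integrity genes in each library, in CPM on a linear axis from 0, with construct, deletion and wild-type libraries from left to right, a marker shape for each replicate number and a line at each group mean. Construct replicate 3 is the highest of the 9 libraries in 9 panels, and PIR1, where it had 846 CPM, is the exception.

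Construct replicate 3 was the library with the highest value in 9 of the 10 genes. Among all tested genes the same library was highest in 24.4%, construct replicate 1 in 9.01% and construct replicate 2 in 12.4%. It was at least 1.5-fold above the mean of the other 2 construct libraries in 7 of the 10 genes, against 4.97% of tested genes. These are values of 1 library, so no test was made, and the 10 genes were chosen with earlier results of these data known. The folds were 6.88 in PIR3, 4.11 in CWP1, 3.22 in SED1, 1.69 in SLT2, 1.67 in CRH1, 1.55 in RLM1 and 1.55 in HSP150. YPS1, with 1.49, and CIS3, with 1.41, lay just below 1.5, and PIR1 was at 0.959.

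On the log2 scale the departure of construct replicate 3 from the mean of construct replicates 1 and 2 had a median of 0.69 over the 10 genes and of −0.02 over all tested genes. Ranked by this departure among 5970 genes, PIR3 was at place 1, CWP1 at 5 and SED1 at 15. SLT2 was at place 165 and CIS3, the least of the raised genes, at 394. PIR1 was at 3442. Over all genes 5% lay below −0.54 and 5% above 0.58. Median departures of the 16 nuclear chromosomes ran from −0.05 to 0.03, and that of the 13 tested mitochondrial genes was 0.52.

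The 3 genes with the largest departures all hold the Rlm1 letters printed above, and so do RLM1 and HSP150, with 1.55-fold each. SLT2 and CRH1, with no such match in the 500-base window, had larger folds than these last 2. Whether the letters bear on the difference was not tested.

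Together the 10 genes took 0.603%, 0.670% and 1.25% of all counts in construct replicates 1, 2 and 3. Their share was 0.649%, 0.635% and 0.637% in the deletion-mutant libraries and 0.621%, 0.675% and 0.639% in the wild type. Outside construct replicate 3 the 3 strains overlapped in this share. In summed CPM that library had 12590, against 6145 and 6432 in the other construct libraries. SED1 made up much of the sum, but without it construct replicate 3 was still the highest, with 7247 CPM against 4594 and 4661.

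This library had 18793582 counts, between the 18044486 of construct replicate 1 and the 20140071 of construct replicate 2, and its ZPR1 level of 5640 CPM lay between those of the other 2. Its AIM29 level of 5.17 CPM lay below their 7.46 and 7.05 CPM. When libraries were weighted by how well they matched their group's fit, with limma's quality weights, it received 0.169, the lowest of the 9. Construct replicate 2 received 0.342 and the others 1.16 to 2.56. Each isolate is 1 library, so a trait of the isolate and a trait of the library cannot be told apart.

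**Figure D2:**
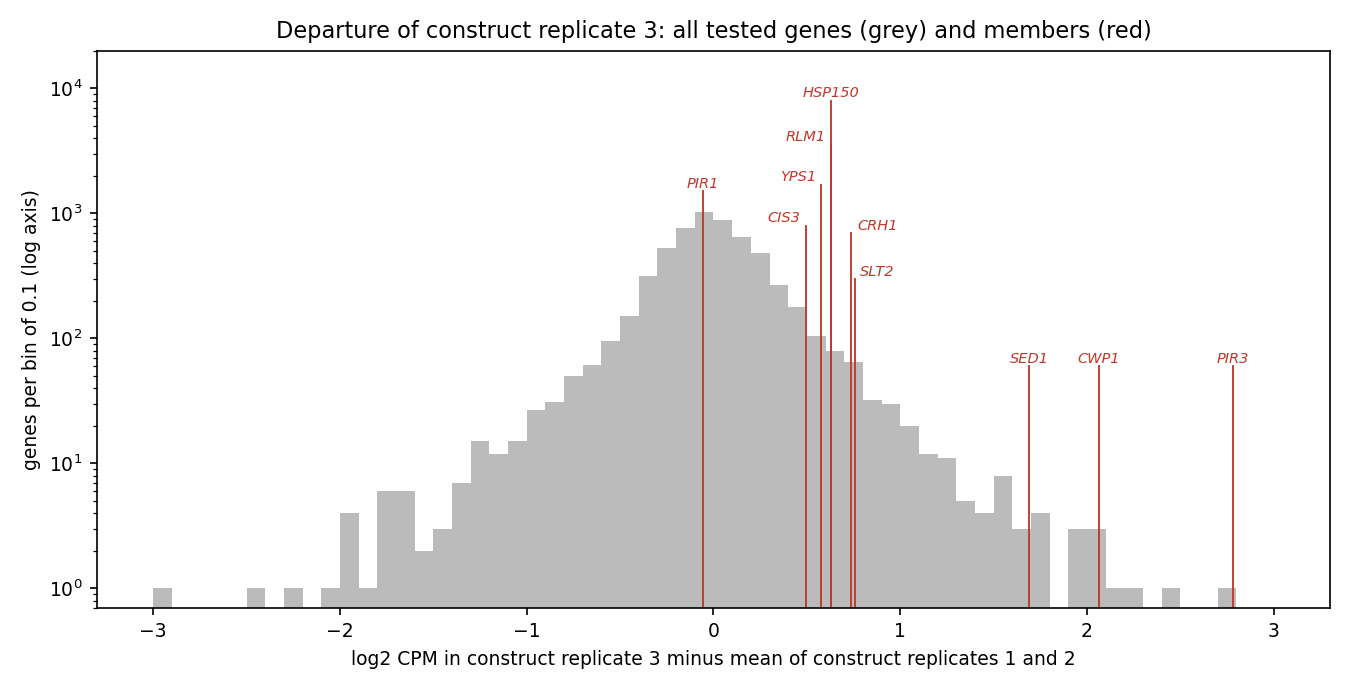
Departure of construct replicate 3 from the mean of construct replicates 1 and 2, in log2 CPM on the horizontal axis; grey bars count all 5970 tested genes per bin of 0.1 on a log axis, and red lines mark the 10 wall integrity genes. PIR3, CWP1 and SED1 lie at the far right end, 6 genes lie between 0.50 and 0.76, and PIR1 lies at −0.06.

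The deletion mutant was compared with the wild type to ask which wall genes differ when AIM29 is missing. In the fit of all 9 libraries 0 of the 10 genes passed edgeR's quasi-likelihood test with an adjusted p (Benjamini-Hochberg) under 0.05. Of all tested genes 4.24% were called higher and 2.16% lower. At an unadjusted p under 0.05 there were also 0 of 10, against 21.8% of tested genes, and DESeq2, which gave no adjusted p for PIR3, and limma-voom called 0. The median log2 fold change was −0.03 over the 10 genes and 0.00 over all tested genes.

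PIR3 had the largest difference. It averaged 37.9 ± 2.06 CPM in the deletion mutant and 65.5 ± 3.64 CPM in the wild type (SD, n = 3 each), a ratio of 0.579. Its fitted log2 fold change was −0.79 ± 0.62 (SE), with an adjusted p of 0.511 by edgeR's quasi-likelihood test. This fit gives each gene 1 estimate of the spread for all groups, and the spread of PIR3 includes the 255 CPM of construct replicate 3. Without that library the log2 fold change was again −0.79, its SE was 0.07 and the adjusted p was 7.42e-06.

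CIS3 averaged 730 ± 7.91 CPM in the deletion mutant and 817 ± 28.5 CPM in the wild type. The log2 fold change was −0.16 ± 0.11 with all libraries (edgeR adjusted p = 0.454) and −0.16 ± 0.05 without construct replicate 3 (adjusted p = 0.0323). In that fit of 8 libraries PIR3 and CIS3 were the 2 of 10 genes called lower and no gene of the 10 was called higher. Of the 6008 genes then tested 8.66% were lower and 9.6% higher.

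SLT2 and PIR1 were on the other side of the wild type. SLT2 averaged 197 ± 8.84 CPM in the deletion mutant and 174 ± 8.44 CPM in the wild type, with a log2 fold change of 0.18 ± 0.17 (edgeR adjusted p = 0.593). For PIR1 the means were 841 ± 56.4 CPM in the deletion mutant and 767 ± 28.8 CPM in the wild type, and the log2 fold change was 0.13 ± 0.07 (adjusted p = 0.281). In a fit of the deletion and wild-type libraries alone both passed, SLT2 with an adjusted p of 0.00668 and PIR1 with 0.0309. PIR3 (3.92e-08) and CIS3 (0.00205) passed there too, as lower. That fit called 14.1% of genes higher and 12.7% lower. Values of the 2 groups did not overlap in 6 of the 10 genes. SLT2 and PIR1 were higher in the deletion mutant, as were 21.1% of tested genes without overlap. CRH1, YPS1, PIR3 and CIS3 were lower, as were 19.2%. The log2 fold changes of the other genes lay between −0.11 in CWP1 and 0.11 in SED1.

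The construct strain was compared with the deletion mutant to ask what the added ZPR1 construct changes. Again 0 of the 10 genes passed edgeR's test, while 1.66% of tested genes were called higher and 3.72% lower. DESeq2 called CIS3 higher (adjusted p = 0.0277), as it did 3.31% of genes, and gave no adjusted p for PIR3, and limma-voom called 0. At an unadjusted p under 0.05 there were 5 of 10 genes, RLM1, CRH1, YPS1, PIR3 and CIS3, against 22.5% of tested genes. All 10 fitted log2 fold changes were above 0, but 5 of them were below 0 without construct replicate 3. Their median was 0.36, against 0.00 over all tested genes.

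The largest fold changes belonged to the genes in which construct replicate 3 lay far above the others. PIR3 had 1.53 ± 0.62 (edgeR adjusted p = 0.183), from means of 110 ± 126 CPM in the construct strain and 37.9 ± 2.06 CPM in the deletion mutant. CWP1 had 0.98 ± 0.46 (0.233) and SED1 0.57 ± 0.37 (0.381). The SD of PIR3 in the construct strain was thus larger than its mean. Without construct replicate 3 the same 3 log2 fold changes were −0.03, −0.04 and −0.23, and the median of the 10 genes was 0.02.

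CIS3 was higher in each construct library than in any deletion library. Its means were 947 ± 199 CPM in the construct strain and 730 ± 7.91 CPM in the deletion mutant, and the log2 fold change was 0.38 ± 0.11 (edgeR adjusted p = 0.0908). Without construct replicate 3 it was 0.19 ± 0.05 and passed (adjusted p = 0.0437), as 1 of 10 genes called higher against 3.0% of tested genes. None of the 10 was called lower, against 5.66%. Without construct replicate 2, in turn, RLM1 (0.48, adjusted p = 0.0409), CRH1 (0.57, 0.0418) and CIS3 (0.48, 0.0158) were called higher, 3 of 10, against 5.21% of tested genes. Libraries of the 2 strains did not overlap in CRH1, YPS1 and CIS3, all higher in the construct strain, and 12.2% of tested genes were so. None of the 10 was lower without overlap, against 13.5%.

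Between the construct strain and the wild type 0 of the 10 genes passed edgeR's test, against 0.117% of tested genes called higher and 0.067% lower. DESeq2, again with no adjusted p for PIR3, and limma-voom also called 0. At an unadjusted p under 0.05 CRH1 and PIR1 stood out, 2 of 10 genes, against 12.8% of tested genes. The median log2 fold change was 0.31, against 0.01 over all tested genes, and 0.02 without construct replicate 3.

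CRH1 had a log2 fold change of 0.40 ± 0.16 (edgeR adjusted p = 0.356) and PIR1 one of 0.18 ± 0.07 (0.326). CWP1 had 0.87 ± 0.45 (0.445) and SED1 0.69 ± 0.37 (0.454). For PIR3 the sign depended on 1 library. With all libraries the log2 fold change was 0.74 ± 0.60 (adjusted p = 0.625), and without construct replicate 3 it was −0.82 ± 0.08 (adjusted p = 1.68e-04). PIR3 was then the 1 gene of 10 called lower, against 0.616% of tested genes, and 0 of 10 were called higher, against 0.433%. Construct replicates 1 and 2 had 35.2 and 39.0 CPM of PIR3, within or next to the deletion-mutant libraries' range of 35.8 to 40.0 CPM. All construct libraries lay above the wild type in RLM1, CRH1 and PIR1, as did 7.81% of tested genes, and none of the 10 lay wholly below it, against 8.58%. The 3 comparisons share libraries in pairs and so are not independent of one another.

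**Figure D3:**
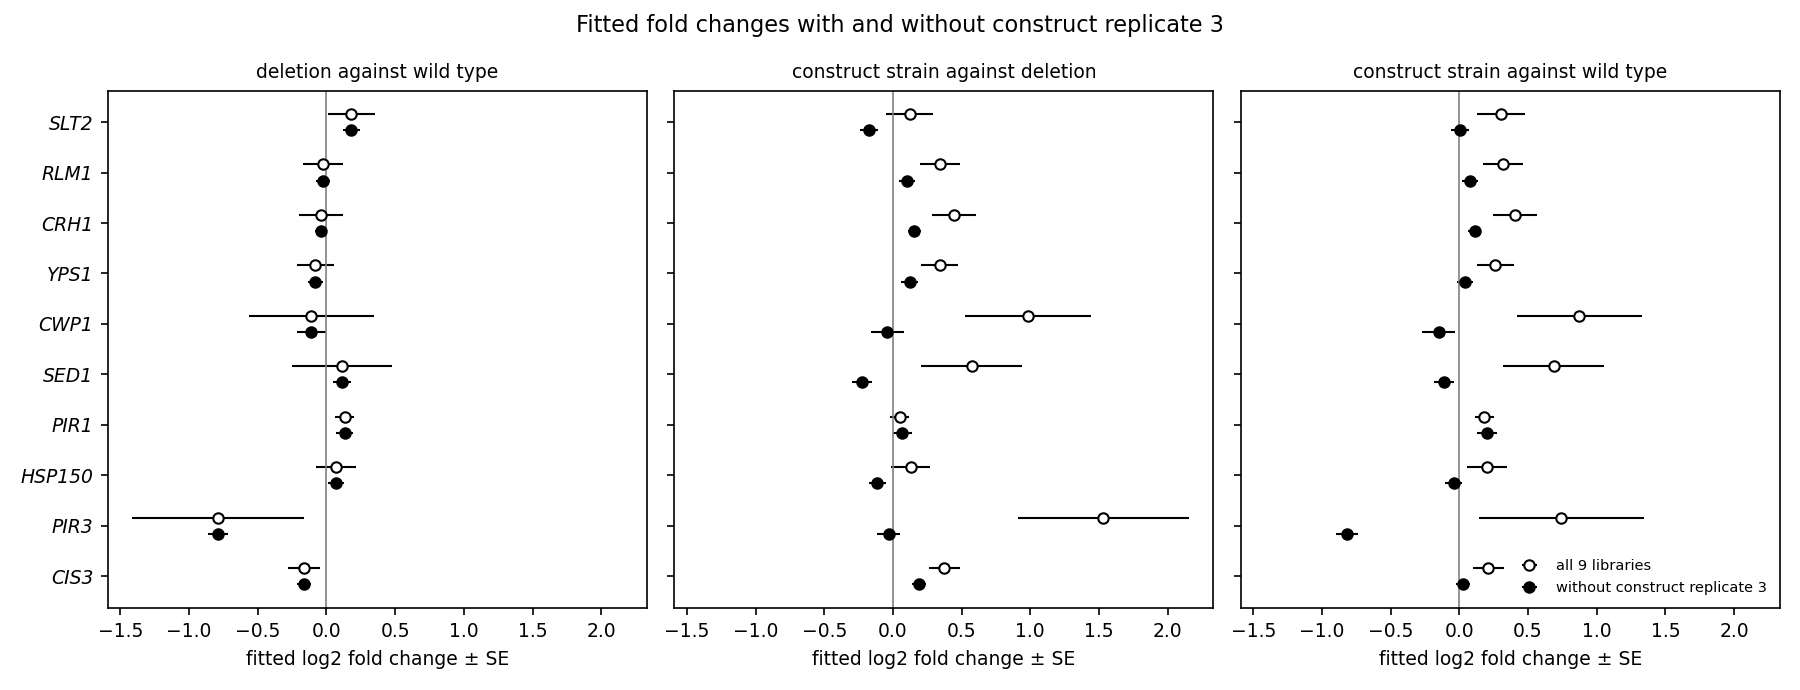
Fitted log2 fold changes of the 10 genes with SE bars in the 3 comparisons, from all 9 libraries (open circles) and without construct replicate 3 (filled circles). PIR3 against the wild type goes from 0.74 to −0.82 in the construct strain when that library is left out, while in the deletion mutant it stays at −0.79 and only its SE shrinks, from 0.62 to 0.07.

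Other genes of the pathway and of the wall were read from 5 lists with 84 genes, all of which were tested. These lists too were chosen with earlier results of these data known. The first list holds 5 further genes known as transcriptional targets of Slt2 and Rlm1. All 5 were highest in construct replicate 3, as were 24.4% of all tested genes, and their median departure there was 0.75 (log2). KDX1, which encodes a protein related to Slt2, had 56.6, 67.0 and 206 CPM in the construct libraries, 91.2, 97.6 and 87.6 CPM in the deletion-mutant libraries and 67.2, 78.6 and 75.0 CPM in the wild type. PRM5, a membrane protein gene, had 61.6, 86.3 and 158 CPM in the construct libraries, 96.0, 90.1 and 92.7 CPM in the deletion-mutant libraries and 56.4, 66.6 and 66.1 CPM in the wild type. In both genes the deletion-mutant libraries lay above the wild type, as they did in PST1. In the rest of the 5 targets the libraries of these strains overlapped. Of all tested genes 21.1% were higher in the deletion mutant without overlap. Among the wall integrity genes described above, only SLT2 and PIR1 were higher in this way.

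None of these 5 targets was called in any comparison with all libraries, by edgeR, DESeq2 or limma-voom without quality weights. With quality weights limma-voom called PRM5 (adjusted p = 0.00258) and PST1 (0.00635) higher in the deletion mutant against the wild type. It called 13.9% of all genes higher there. At an unadjusted p under 0.05 edgeR gave 2 of 5, PRM5 and PST1, between the construct strain and the wild type, against 12.8% of all tested genes. It gave 0 of 5 in the deletion mutant against the wild type (21.8%) and in the construct strain against the deletion mutant (22.5%). The lowest p in the deletion mutant against the wild type belonged to PRM5 (log2 fold change 0.56 ± 0.26, edgeR adjusted p = 0.245) and to PST1, a GPI-anchored wall protein gene (0.33 ± 0.17, 0.274). Without construct replicate 3, PRM5 (adjusted p = 0.0022), PST1 (0.00751) and KDX1 (0.00922) were called higher, 3 of 5, against 9.6% of all genes tested in that fit. The median log2 fold change of the 5 was 0.32 and that of all tested genes 0.00. In the construct strain against the deletion mutant the lowest p belonged to NCW2, another wall protein gene (0.28 ± 0.17, adjusted p = 0.355), and to KDX1 (0.25 ± 0.38, 0.738). KDX1 changed sign without construct replicate 3, to −0.57, and was then called lower (adjusted p = 5.57e-04). It was 1 of 5 so called, against 5.66% of all genes tested in that fit. Against the wild type PRM5 (0.69 ± 0.26, 0.326) and PST1 (0.40 ± 0.17, 0.367) had the lowest p in the construct strain.

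The 23 signalling genes hold the sensors, the Rho1 module, the kinases above Slt2, the phosphatases that act on Slt2, and Swi4 and Swi6. In construct replicate 3, 15 of them were highest, against the 24.4% of all tested genes given above, with a median departure of 0.15. The largest departures were in ROM1, an exchange factor of Rho1 (25.8, 29.0 and 53.6 CPM in construct replicates 1, 2 and 3), and in PTP2, a phosphatase (55.6, 51.2 and 103 CPM). No signalling gene was called in any comparison with all libraries by edgeR or by limma-voom without quality weights. With quality weights limma-voom called MTL1 higher and SAC7, SWI4 and BEM2 lower in the deletion mutant against the wild type (13.9% and 12.3% of all genes). It called MTL1 lower in the construct strain against the deletion mutant (6.5%). DESeq2 called MTL1 and SAC7 in the deletion mutant against the wild type and WSC2 and WSC3 in the construct strain against the deletion mutant. Of all genes it called 6.11% higher and 3.89% lower in the first of these, and 3.31% higher and 5.25% lower in the second. At an unadjusted p under 0.05 edgeR gave 3 genes in the first of these comparisons, 8 in the second and 3 between the construct strain and the wild type, of 23, against 21.8%, 22.5% and 12.8% of all tested genes. In the deletion mutant against the wild type the lowest p belonged to SAC7, which encodes a GTPase-activating protein of Rho1 (−0.22 ± 0.06, edgeR adjusted p = 0.0548), and to MTL1, a sensor related to Mid2 (0.70 ± 0.21, 0.0778). MTL1 had 19.98, 20.3 and 19.1 CPM in the deletion-mutant libraries and 10.9, 12.9 and 12.8 CPM in the wild type, without overlap, and passed without construct replicate 3 (adjusted p = 0.00123). For the construct strain against the deletion mutant these were the sensor genes WSC3 (0.24 ± 0.07, 0.078) and WSC2 (0.28 ± 0.08, 0.0806). Against the wild type they were MID2 (0.21 ± 0.09, 0.364), the main sensor beside Wsc1, and TUS1, an exchange factor (0.16 ± 0.07, 0.38).

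Wall synthesis genes numbered 27 (glucan and chitin synthesis and wall-remodelling enzymes), of which 21 were highest in construct replicate 3 (24.4% of all tested genes), with a median departure of 0.27. SCW10 had the lowest p of all list genes in both comparisons with the deletion mutant. This gene, which encodes a wall protein similar to glucanases, had 374, 369 and 429 CPM in the construct libraries, 253, 267 and 266 CPM in the deletion-mutant libraries and 366, 365 and 358 CPM in the wild type. It fell in the deletion mutant against the wild type (log2 fold change −0.47 ± 0.06, edgeR adjusted p = 0.00134) and was higher in construct libraries than in the deletion mutant (0.57 ± 0.06, 0.000428). Both calls held with each of the 9 libraries left out in turn, with adjusted p of at most 0.0135 and 0.00495. CRR1, known for its part in building the spore wall, was lower in construct libraries than in the deletion mutant (−1.14 ± 0.25, 0.0244), with 6.73, 10.3 and 4.95 against 21.1, 14.8 and 12.7 CPM. CRR1 was lost without deletion replicate 1 (−0.91, 0.109), without deletion replicate 2 (−1.20, 0.0753) and without construct replicate 1 (−1.08, 0.0571). Against the wild type no gene of the list passed in the construct strain by the 3 tools. At an unadjusted p under 0.05 edgeR gave 5 of 27 in the deletion mutant against the wild type (21.8% of all tested genes). It gave 6 of 27 in the construct strain against the deletion mutant (22.5%) and 3 of 27 against the wild type (12.8%). In this last comparison the lowest p belonged to CHS2, the chitin synthase of the septum (0.17 ± 0.06, 0.323), and CRR1 (−0.67 ± 0.25, 0.326).

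Among 16 other wall proteins, 8 were highest in construct replicate 3 (24.4% of all tested genes) and the median departure was 0.16. TIR3, a mannoprotein gene, had 15.2, 16.5 and 17.0 CPM in the construct libraries, 27.2, 26.2 and 22.2 CPM in the deletion-mutant libraries and 15.4, 19.0 and 17.4 CPM in the wild type. TIR3 rose in the deletion mutant against the wild type (0.55 ± 0.11, edgeR adjusted p = 0.0143) and was lower in construct libraries than in the deletion mutant (−0.63 ± 0.11, 0.00645). The first of these calls was lost without wild-type replicate 1 (0.47, 0.0731), wild-type replicate 3 (0.55, 0.064), deletion replicate 1 (0.49, 0.0685) or deletion replicate 2 (0.52, 0.0748), and the second held with each library left out. ECM33, a GPI protein gene, had 1702, 1611 and 1947 CPM in the construct libraries, 1416, 1455 and 1465 CPM in the deletion-mutant libraries and 1623, 1617 and 1640 CPM in the wild type. It was higher in construct libraries than in the deletion mutant (0.28 ± 0.07, 0.0366), a call that held without any 1 construct library and was lost without any 1 wild-type or deletion library (adjusted p 0.0668 to 0.142). Against the wild type no gene of this list was called in the construct strain by the 3 tools. At an unadjusted p under 0.05 edgeR gave 3 of 16 in the deletion mutant against the wild type (21.8% of all tested genes). It gave 7 of 16 in the construct strain against the deletion mutant (22.5%) and 1 of 16 against the wild type (12.8%). In this last comparison the lowest p belonged to CCW12, a major mannoprotein gene (0.23 ± 0.07, 0.27), and PIR5 (−0.41 ± 0.20, 0.421). PIR5 is a gene of the repeat family with 1.99 to 4.27 CPM. Against the deletion mutant it had −0.77 ± 0.20 (edgeR adjusted p = 0.0532). DESeq2 called PIR5 lower (adjusted p = 0.0373) and CWP2 higher (0.028) there, besides TIR3 and ECM33, against 5.25% of all genes lower and 3.31% higher. In the deletion mutant against the wild type DESeq2 called MKC7 lower (0.0332) and TIR3 higher, against 3.89% and 6.11%.

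Cell separation genes, 13 in number, act where daughter cells leave their mothers. They were the one list whose median departure of construct replicate 3 from construct replicates 1 and 2 was below 0, at −0.12. In that library 4 of 13 genes were at their highest, against 24.4% of all tested genes. Against the wild-type mean, the median log2 difference of the 13 genes was 0.038 in construct replicate 3. It was 0.09 in construct replicate 1 and 0.185 in construct replicate 2. None was called in any comparison with all libraries by edgeR or by limma-voom without quality weights. With quality weights limma-voom called DSE1, DSE2, SIC1 and CTS1 higher in the deletion mutant against the wild type (13.9% of all genes). It called DSE1 lower in the construct strain against the deletion mutant (6.5%). DESeq2 called DSE1 higher in the deletion mutant and CTS1 higher in the construct strain, each against the wild type. It called 6.11% and 0.666% of all genes higher in these 2 comparisons. At an unadjusted p under 0.05 edgeR gave 2 genes between the deletion mutant and the wild type, 1 between the construct strain and the deletion mutant, and 3 between the construct strain and the wild type, of 13, against the same 21.8%, 22.5% and 12.8% of all tested genes. In the deletion mutant against the wild type the lowest p belonged to the daughter-specific genes DSE1 (0.25 ± 0.07, edgeR adjusted p = 0.0515) and DSE2 (0.17 ± 0.06, 0.118). DSE1 had −0.14 ± 0.07 (0.237) in the construct strain against the deletion mutant. Against the wild type the chitinase gene CTS1 had the lowest p in the construct strain (0.31 ± 0.08, 0.194).

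**Figure D4:**
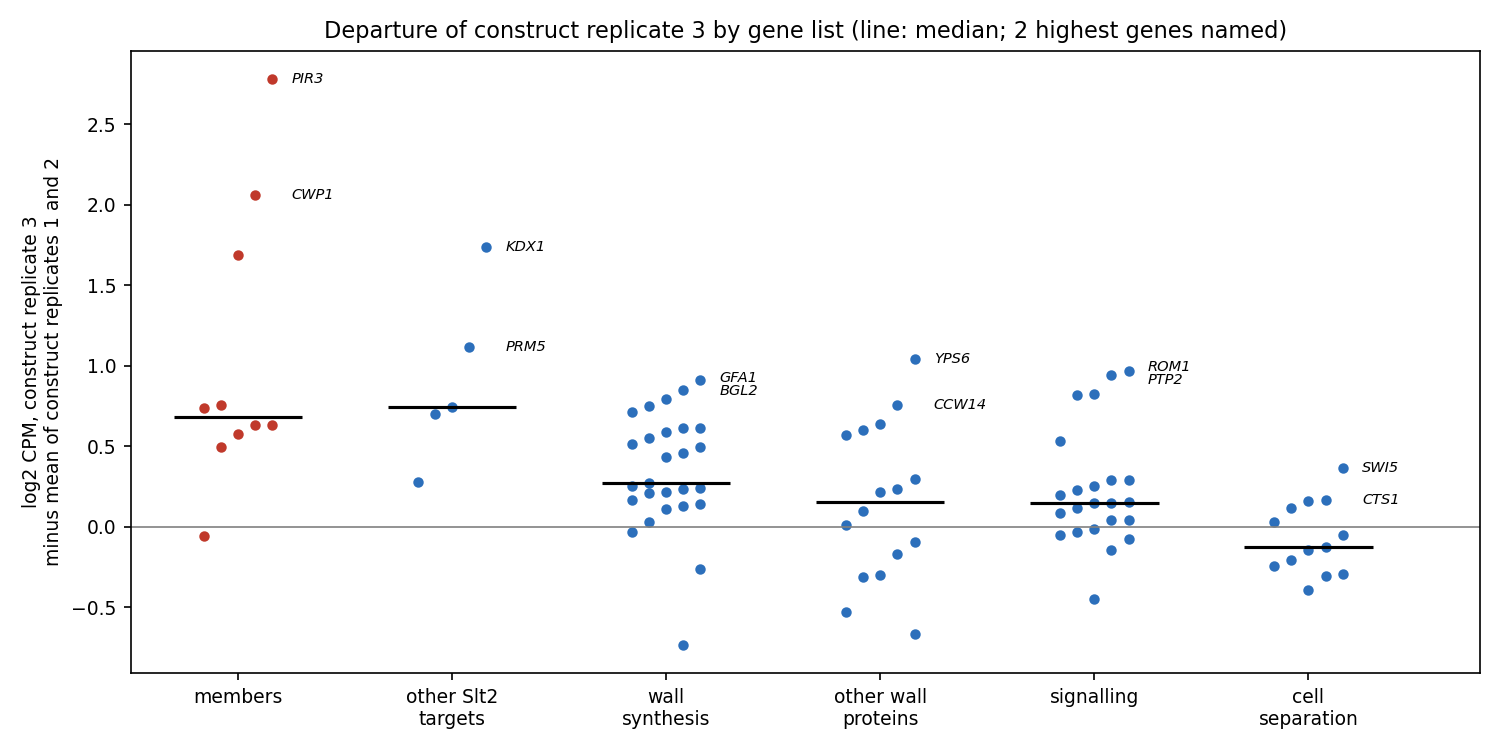
Departure of construct replicate 3 from the mean of construct replicates 1 and 2 (log2 CPM, vertical axis) for the 10 wall integrity genes in red and for the genes of the 5 other lists in blue, with a line at each median and the names of the highest pair of genes. Medians run from 0.75 in the other Slt2 targets and 0.69 in the 10 genes to −0.12 in the cell separation genes.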

How the data were processed

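The authors deposited 1 table of raw counts, whole numbers per feature and library and not normalised. The submitters' processing notes name FastQC 0.11.5, STAR 2.7.0, DESeq2 1.34.0 and build R64. How reads were counted, with which strand setting and with what treatment of repeated sequence is not given in the sources used here.

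Groups and replicate numbers came from the sample titles. Counts were filtered with filterByExpr and scaled with TMM factors, and edgeR 4.0.16 (R 4.3.3) gave quasi-likelihood tests from 1 fit of the 9 libraries by group, with 6 residual degrees of freedom. Benjamini-Hochberg adjustment covered every gene tested in a comparison, and 0.05 was the threshold. CPM used TMM-scaled library sizes, and log2 CPM a prior count of 2. DESeq2 1.42.0 and limma 3.58.1 (voom) were alternatives. Library quality weights were added after seeing the data, and limma-voom calls are given without them unless they are named. Values of 1 list gene that the rule below names are not reported here. The procedure was tested on simulated counts with known changes.

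The 10 genes and the 5 lists were chosen with earlier results of these data known. Named list genes are those called in a comparison, up to the 4 with the lowest p per list, or the 2 with the lowest p where none was called. KDX1 and MTL1 without construct replicate 3, ROM1 and PTP2, and the genes named in figures for construct replicate 3, were chosen after their values were seen. No library was a copy of another of its group: chi-square values of replicate pairs, divided by their degrees of freedom, were 2.93 to 65.7. At these depths 3 counts correspond to 0.143 to 0.213 CPM. Positions, sequences and motif searches used the RefSeq reference of R64 in Python 3.11.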

Additional observations from a re-analysis of the deposited data

How the results depend on the processing

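Of 567 log2 fold changes of the 10 genes under other settings, 535 kept their direction and side of the threshold, 15 newly passed and 17 changed sign. The settings include the main fit read at an adjusted p under 0.01, where no value could change. A value that changed sign was counted only as such, even where it also passed. PIR3 in the construct strain against the wild type, without construct replicate 3, was such a value. For the deletion mutant against the wild type, the number of the 10 genes called went from 0 to 2 with library quality weights, 4 with the groups compared alone and 0 to 2 with each library left out. For the construct strain against the deletion mutant it was 1 without composition factors, with DESeq2 and with quality weights, and 0 to 3 with each library left out; against the wild type it was 0 to 1. Of the 84 list genes, 2 were called in the first comparison, while 4.24% of all tested genes were called higher and 2.16% lower. DESeq2 called 6 (6.11% of all genes higher and 3.89% lower), quality weights 24 (13.9% and 12.3%) and the groups alone 31 (14.1% and 12.7%). Without composition factors 7 were called, for which no share of all genes was computed, and 1 passed at an adjusted p under 0.01. Leaving out a library gave 1 to 20, with 20 without construct replicate 3 (9.6% and 8.66%). In the second, 4 were called, while 1.66% of all tested genes were called higher and 3.72% lower. DESeq2 called 8 (3.31% and 5.25%), quality weights 8 (3.9% and 6.5%) and the groups alone 2 (0.504% and 2.07%). At an adjusted p under 0.01 there were 2, and leaving out a library gave 2 to 12, with 12 without construct replicate 3 (3.0% and 5.66%). In the third, 0 were called, while 0.117% of all tested genes were called higher and 0.067% lower. DESeq2 called 1 (CTS1, with 0.666% and 0.564% of all genes), and leaving out a library gave 0 to 2 (2 without construct replicate 1).

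Log2 fold changes that changed sign with each library left out ran as follows. For the construct strain against the deletion mutant they spanned −0.17 to 0.29 in SLT2, −0.041 to 1.36 in CWP1, −0.23 to 0.87 in SED1, −0.012 to 0.105 in PIR1, −0.11 to 0.25 in HSP150 and −0.031 to 1.95 in PIR3. Against the wild type they spanned −0.15 to 1.25 in CWP1, −0.11 to 0.99 in SED1, −0.042 to 0.32 in HSP150 and −0.82 to 1.16 in PIR3, and for the deletion mutant against the wild type −0.06 to 0.011 in RLM1. With quality weights the signs turned in the construct strain against the deletion mutant for SLT2 (−0.17), SED1 (−0.11) and HSP150 (−0.035), and against the wild type for CWP1 (−0.11), SED1 (−0.002) and PIR3 (−0.59). All but those of PIR1 and RLM1 turned when construct replicate 3 was left out or given a low weight.

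Replicate numbers are not stated to pair the libraries, and deviations of same-numbered libraries correlated between −0.107 and 0.0745. With 3 libraries per group these correlations cannot show whether same-numbered libraries were handled together. With the replicate number as a replicate block 0 of the 10 genes were called in each comparison, and 2, 4 and 0 list genes. The lowest count among the 10 genes was 513 (PIR3 in deletion replicate 3).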

Other observations

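Other genes that led construct replicate 3 were read off after their values were seen, among the 5061 genes that averaged 10 CPM or more. After PIR3 the largest departures were in YNR066C (17.0, 14.9 and 85.0 CPM in construct replicates 1, 2 and 3) and YNR065C (58.5, 50.3 and 258 CPM). The genes given next were picked from the 12 with the largest departures and do not stand for them all. CRG1, SRL3, KDX1 and RDT1 also ranked above HSP12. HXK1, a hexokinase gene that is repressed by glucose, had 23.6, 38.1 and 133 CPM in the construct libraries. Its values were 28.9, 36.7 and 28.0 CPM in the deletion-mutant libraries and 22.4, 36.1 and 20.8 CPM in the wild type. TPO2, a polyamine transporter gene, had 31.8, 30.6 and 130 CPM in the construct libraries, against 31.6, 28.4 and 29.7 CPM in the deletion-mutant libraries. In the wild type TPO2 had 52.8, 44.8 and 37.7 CPM, above the deletion-mutant libraries and construct replicates 1 and 2. HSP12, a stress-induced membrane protein gene, had 25.8, 57.9 and 116 CPM in the construct libraries, against 41.2, 43.9 and 38.4 CPM in the deletion-mutant libraries. Its wild-type values were 39.0, 59.1 and 42.7 CPM, a range that holds construct replicate 2. In HSP12 the 3 construct libraries differed from each other, while for HXK1 and TPO2 replicate 3 stood alone. At the other end BSC1 had 27.6, 19.2 and 2.80 CPM in the construct libraries. It had 46.3, 32.6 and 41.7 CPM in the deletion-mutant libraries and 36.8, 35.8 and 41.6 CPM in the wild type.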
